A study of Mus musculus with 8 samples.

Results

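The genes described here encode the tumour necrosis factor (TNF) ligands, their receptors and the Traf adaptors that bind the receptors inside the cell. Members were chosen by name: all genes on the array called Tnfsf, Tnfrsf or Traf with a number, together with Tnf, Lta, Ltb, Ltbr, Fas, Fasl, Cd40 and Ngfr. This gave 48 of the 21623 genes named on the array, read by 61 probes: 14 ligands, 24 receptors, 7 Traf adaptors and 3 Traf-interacting proteins, which share the Traf name and are no Traf themselves.

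Satellite cells, which lie along muscle fibres and rebuild them after damage, were taken from C57BL/6 mice labelled as males aged 3 months, and their RNA was measured on 1-colour arrays. The cells were sorted as positive for integrin alpha 7 and negative for CD31, CD45, CD11b and Sca1. One group came from basal muscle (4 arrays), and the other from muscle taken 3 days after injury with cardiotoxin, a venom toxin that kills muscle fibres (4 arrays). Both groups carry the same strain and sort. The labels call the samples biological replicates and state no pooling. The comparison asks which transcripts differ between satellite cells of resting and of regenerating muscle.

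TNF ligands act as trimers, on the cell surface or after being cut from it, and gather their receptors into clusters. Some receptors, such as Tnfrsf1a and Fas, carry a death domain that can recruit caspases. Others bind Traf proteins, which lead to the kinases that free the transcription factor NF-kappaB. In skeletal muscle the pathway is known for its part in inflammation and atrophy, and the ligand TWEAK (Tnfsf12) with its receptor Fn14 (Tnfrsf12a) for its part in the response of myogenic cells to injury.

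Some arrays stood apart from their group or their label. The injured arrays 2, 3 and 4 are labelled male, yet no Y-linked gene examined (Ddx3y, Eif2s3y, Kdm5d and Uty) was well above background on them, and their Xist levels were 6.37, 6.55 and 6.57 on the log2 scale used throughout. Injured array 1 had Ddx3y at -2.19 and Xist at 1.72. The basal arrays, also labelled male, had Ddx3y at -0.76, -0.25, -0.07 and -0.89 and Xist at 3.85, 2.15, -1.12 and -4.97. Ddx3y was thus lower after injury without overlap (log2 difference -3.73, adjusted p = 8.9e-04), so sex-linked signal moved with the group. Its part in the members' changes was not tested. Basal arrays 1 and 2 had Pecam1, the gene of CD31, at 3.20 and 2.87, against -2.20 and -3.22 on basal arrays 3 and 4, although CD31 was a marker removed by the sort. Ly6a, the gene of Sca1, read 1.34 and 0.07 on basal arrays 1 and 2, against -3.3 and -3.49 on basal arrays 3 and 4. The genes of the other markers removed, Ptprc (CD45) and Itgam (CD11b), were well above background on all 8 arrays. The satellite cell genes Pax7 and Myod1 were well above background on all 8 arrays, and Myf5 on none. All basal arrays lay on 1 slide and all injured arrays on another, each with its own scan, so slide and group cannot be told apart. Between 50.1% and 56.7% of spots per array were well above background, and no spot was saturated. The number of arrays limits the precision.

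All levels below are log2 signals minus the 75th percentile of the array, so a level of 0 is the 75th percentile itself. They follow a probe from array to array and are not compared between probes. "Well above background" is the scanner software's own mark. A gene was tested if its probe had that mark on at least 3 of the 4 arrays of a group. Differences are injured minus basal, from limma over 13595 genes with Benjamini-Hochberg adjustment, and a gene was called at an adjusted p under 0.05. Of all genes tested, 60.2% were called, 35.4% higher and 24.8% lower after injury.

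Of the 48 members, 31 could be tested. After injury 8 were higher, 9 were lower and 14 were not called, so 54.8% were called against 60.2% of all genes tested. The groups of 4 arrays did not overlap for 16 of the 31 (51.6%), against 57.2% of all genes tested. The median difference was -0.03 for the members and 0.17 for all genes tested. The share of members called thus lay near that of all genes. In a fit of the authors' deposited table, the counts were 5 higher and 2 lower, and 4054 of all 13595 genes tested were called. In bulk RNA, fewer cells of a type and less RNA per cell cannot be told apart.

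**Figure D1:**
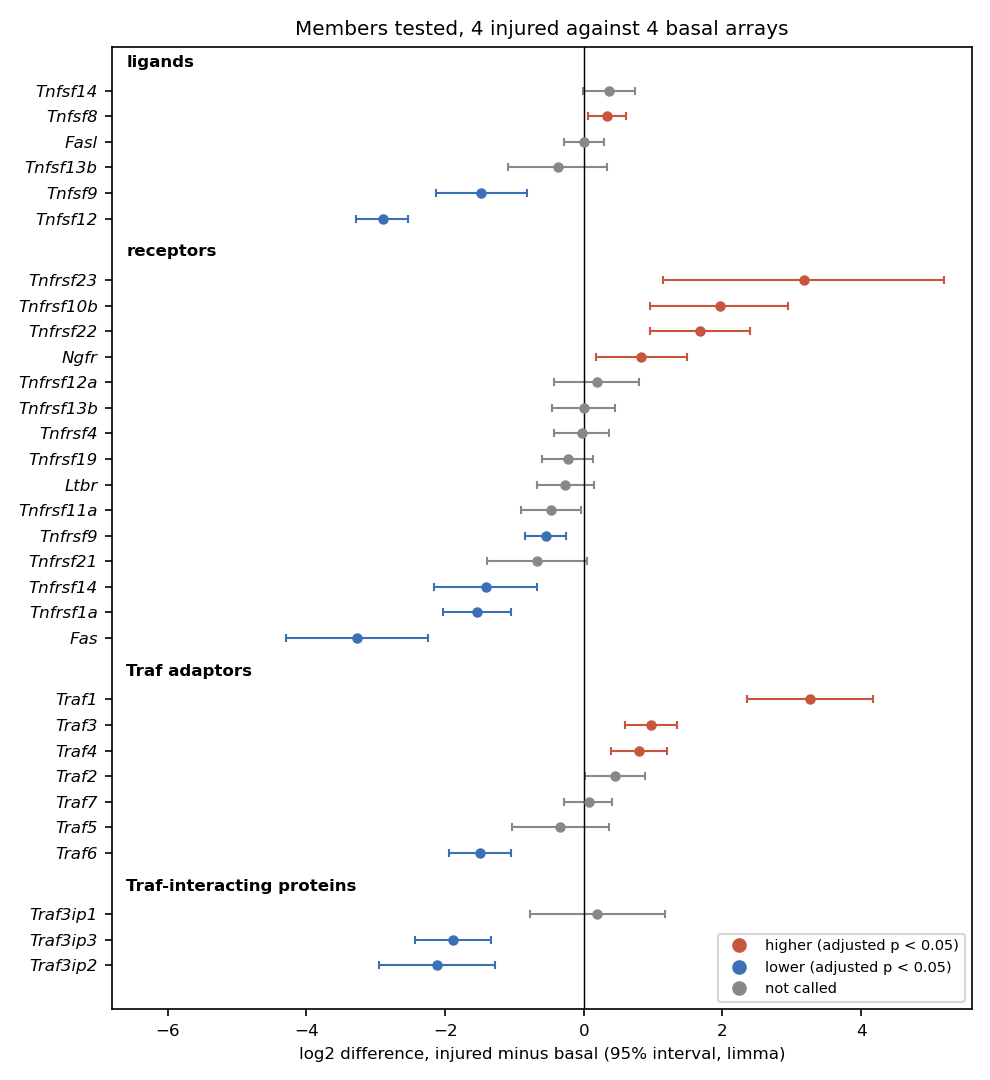
The log2 difference between injured and basal arrays (horizontal axis) is plotted for the 31 members tested, with 95% intervals from limma, grouped by role. Red points were called higher, blue lower and grey not called; Traf1 (3.27) and Tnfrsf23 (3.17) lie farthest right, Fas (-3.27, fitted against injured arrays at background) and Tnfsf12 (-2.90) farthest left.

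Among the ligands, Tnfsf12 showed the clearest change. Its levels were 4.50, 4.72, 5.19 and 4.80 on basal arrays 1 to 4 and 1.80, 1.80, 1.94 and 2.06 on injured arrays 1 to 4. The groups lay far apart, with less spread within either than between them. Tnfsf12 was 7.48-fold lower after injury (log2 difference -2.90, SE 0.17, adjusted p = 7.3e-06). Its second probe, which lies beside the first on chromosome 11, gave a difference of -2.05 (SE 0.18, adjusted p = 4.7e-05 with every probe as its own row). In that fit 9 of 39 member probes were higher and 14 lower, and 56.9% of all probes tested were called.

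The receptor of this ligand, Tnfrsf12a, was not called. Tnfrsf12a read 5.99, 5.69, 5.70 and 4.76 on the basal arrays and 5.91, 5.88, 5.76 and 5.34 on the injured arrays. The groups overlapped, and the difference of 0.19 had a 95% interval from -0.43 to 0.80 (adjusted p = 0.571). That interval allows neither a fall of the size seen for the ligand nor a doubling.

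Tnfsf9, which encodes the costimulatory ligand 4-1BBL, was the other ligand that fell. It read -2.06, -2.00, -1.96 and -2.46 on the basal arrays, all well above background, and -3.59, -3.89, -4.15 and -2.75 on the injured arrays, none of them well above background. The groups did not overlap. Only a bound on the difference of means can be given: Tnfsf9 was at least 2.08-fold lower after injury. The fitted log2 difference was -1.48 (interval -2.13 to -0.82, adjusted p = 0.00241). The authors' deposited table gave -0.13 without a call (adjusted p = 0.828). Such bounds set the bright group's mean against the lowest signal well above background on each dim array. Where the probe's own signal is higher, that signal is used. The bounds leave out the spread between arrays, so smaller differences remain possible. Tnfsf9 lies 82.1 kb from Tnfsf14 on chromosome 17, measured between probes on the array's build mm9.

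Tnfsf8, the CD30 ligand, was the only ligand called higher, and by little. It read -0.06, -0.17, -0.26 and -0.03 on the basal arrays and 0.37, 0.20, 0.10 and 0.16 on the injured arrays, without overlap. The log2 difference was 0.33 (SE 0.12, adjusted p = 0.0373). The call was lost when basal array 2 or 3, or any injured array, was left out (adjusted p of 0.0529 to 0.115), and under 14 of 21 alternative settings in all.

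The other 3 ligands tested did not pass the test in either direction. Fasl, which triggers apoptosis through Fas, differed by 0.00 with an interval from -0.29 to 0.29. Tnfsf13b (BAFF, a B cell survival factor) differed by -0.37 and Tnfsf14 (LIGHT) by 0.36, with adjusted p of 0.329 and 0.0855. Tnfsf13b was called lower without basal arrays 1 and 2 (-0.60, adjusted p = 0.00952).

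Tnf itself, the founding member of the family, was too dim to test. It read -2.19 on basal array 1, its only array well above background, and -4.51, -4.81 and -4.81 on the other basal arrays. On the injured arrays it read -4.51, -4.81, -4.37 and -4.56. The probes of Lta, Tnf and Ltb span 7.2 kb on chromosome 17, and Lta and Ltb were well above background on no array and on 1 basal array. Tnfsf10 (TRAIL), Tnfsf11 (RANKL), Tnfsf18 and Tnfsf4 were well above background on no array, and Tnfsf15 on 1 basal array. For these genes a level under background cannot be read as absence of the transcript.

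**Figure D2:**
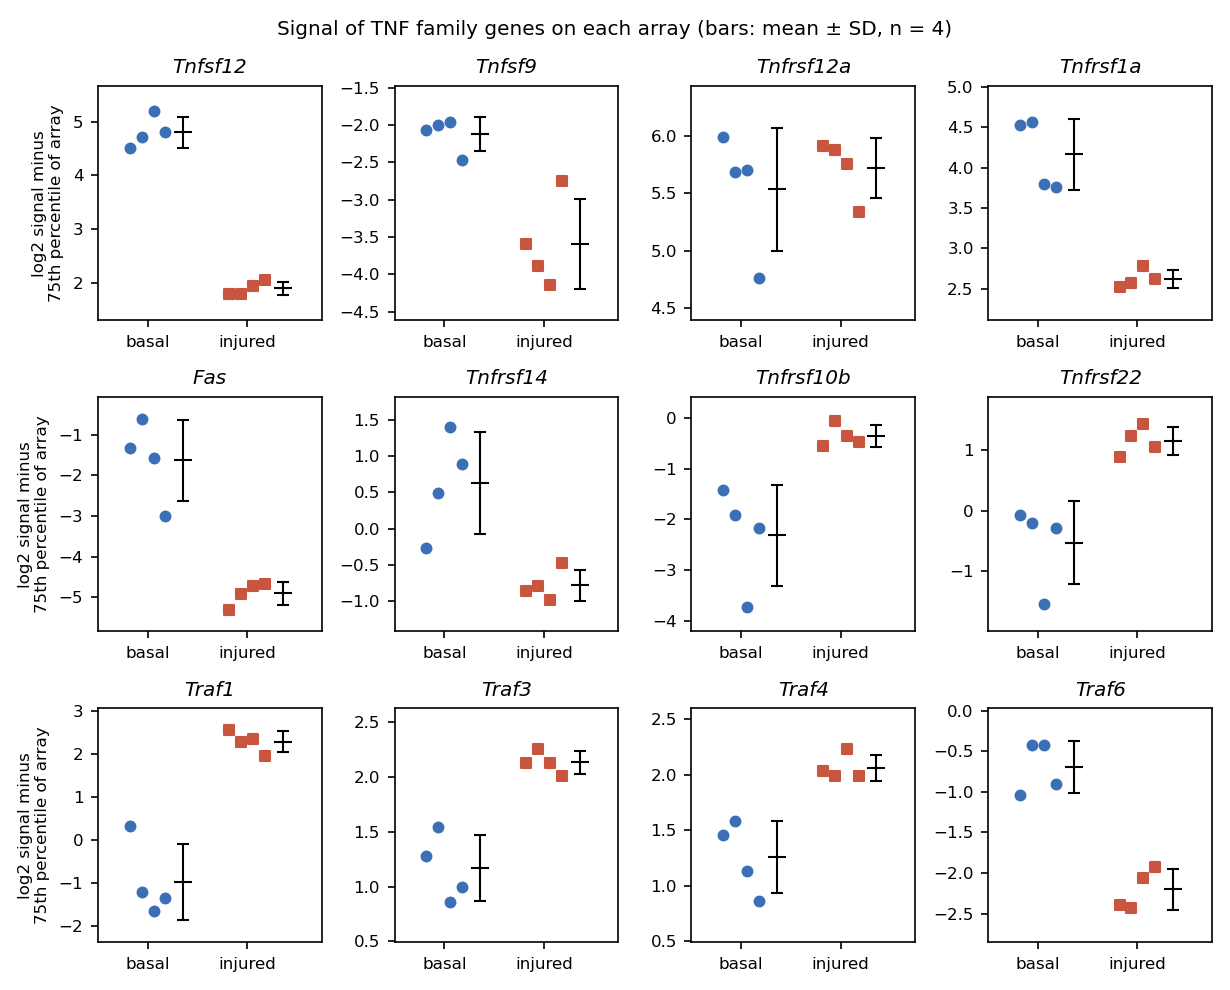
Log2 signal minus the 75th percentile of the array (vertical axes, a scale of its own for each gene) is shown for 12 members on 4 basal arrays (circles) and 4 injured arrays (squares), in the order of replicate numbers, with mean and SD beside them. Basal and injured points separate for all genes shown except Tnfrsf12a, whose points share the range from 4.76 to 5.99.

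Among the receptors, Fas was called lower. Fas, the death receptor for Fasl, read -1.34, -0.61, -1.58 and -3.01 on the basal arrays and -5.30, -4.92, -4.73 and -4.66 on the injured arrays. All basal arrays were well above background and no injured array was, so Fas was at least 2.94-fold lower after injury (fitted log2 difference -3.27, SE 0.45, adjusted p = 4.0e-04). Basal array 4 lay nearest to the injured arrays. The size depended on the background correction: with normexp the difference was -0.80 or -0.78, and in a fit of the authors' deposited table it was -0.59 and not called (adjusted p = 0.317).

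Tnfrsf1a, the main signalling receptor for TNF, stayed well above background in both groups and fell. It read 4.53, 4.56, 3.80 and 3.76 on the basal arrays and 2.53, 2.57, 2.78 and 2.62 on the injured arrays. The groups did not overlap, and Tnfrsf1a was 2.91-fold lower after injury (log2 difference -1.54, SE 0.22, adjusted p = 4.3e-04). Its second probe, spotted 10 times per array, gave -1.60 (SE 0.21). Tnfrsf1b, the second TNF receptor, could not be tested: it was well above background on 2 basal arrays and no injured array, with levels of -5.26 to -2.55 and -4.89 to -3.22.

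Ltbr, the lymphotoxin beta receptor, whose probe lies 55.3 kb from that of Tnfrsf1a on chromosome 6, did not pass the test. It read -0.16, 0.03, -0.31 and -0.65 on the basal arrays and -0.47, -0.31, -0.53 and -0.84 on the injured arrays. The groups overlapped, and the difference was -0.27 (interval -0.68 to 0.15, adjusted p = 0.233).

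Tnfrsf14, the receptor HVEM, read -0.27, 0.49, 1.40 and 0.90 on the basal arrays and -0.87, -0.80, -0.99 and -0.48 on the injured arrays. The groups lay close at basal 1 and injured 4 and did not overlap. Tnfrsf14 was 2.66-fold lower after injury (log2 difference -1.41, SE 0.33, adjusted p = 0.00535).

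Receptors that rose included a neighbouring pair. Tnfrsf22 and Tnfrsf23 encode mouse decoy receptors for TRAIL that lack a death domain, and their probes lie 39.2 kb apart on chromosome 7. Tnfrsf22 read -0.07, -0.21, -1.54 and -0.29 on the basal arrays and 0.88, 1.23, 1.42 and 1.04 on the injured arrays. It was 3.19-fold higher after injury (log2 difference 1.67, SE 0.32, adjusted p = 0.00207), without overlap, and its second probe gave 1.01 (SE 0.13, adjusted p = 3.2e-04).

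Tnfrsf23 read -0.90, -5.03, -5.25 and -3.82 on the basal arrays and -1.17, -1.14, 0.19 and -0.20 on the injured arrays. Basal array 1 lay among the injured arrays and was the only basal array well above background. The log2 difference was 3.17 with a wide SE of 0.89 (adjusted p = 0.0139). Without basal arrays 1 and 2 it was 3.95 (adjusted p = 7.3e-04). Tnfrsf23 passed the filter through its injured group only. Another Tnfrsf23 probe averaged -4.96 in the basal group and -4.0 in the injured group, and was never well above background. The third gene of this cluster, Tnfrsf26, was well above background on no array.

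Tnfrsf10b, the death domain receptor for TRAIL, read -1.43, -1.92, -3.73 and -2.18 on the basal arrays and -0.56, -0.07, -0.35 and -0.47 on the injured arrays. The injured arrays lay together above all basal arrays, and Tnfrsf10b was 3.88-fold higher after injury (log2 difference 1.96, SE 0.44, adjusted p = 0.00464). Neither Tnfrsf10b (1.02, adjusted p = 0.252) nor Tnfrsf23 (0.85, adjusted p = 0.0807) was called in a fit of the authors' deposited table.

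Ngfr, the neurotrophin receptor p75, read 2.15, 1.40, 1.66 and 2.81 on the basal arrays and 2.95, 2.58, 2.89 and 2.92 on the injured arrays. Basal array 4 lay within the injured range. The log2 difference was 0.83 (SE 0.29, adjusted p = 0.0333). The call was lost without basal array 2 or 3 and without injured array 1, 3 or 4 (adjusted p of 0.0728 to 0.0799), and under 10 of 21 alternatives in all.

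Tnfrsf9, the receptor 4-1BB, was called lower on a probe whose sequence ends in a simple repeat. The last 30 bases of its probes are shown because only the first of them gave a signal, with the repeat in capitals.
Tnfrsf9 bright probe: taaaatcaGTGTGTGTGTGTGTGTGTGTGT
Tnfrsf9 dim probe: taacatatttgtctttaccttttttaaatc
The bright probe (chr4:150319582-150319641, mm9) read 9.38, 9.48, 9.75 and 9.62 on the basal arrays and 8.95, 9.05, 8.91 and 9.13 on the injured arrays (log2 difference -0.55, SE 0.13, adjusted p = 0.00542). The dim probe, which carries the same gene name, had a mean level of -4.94 and was well above background on no array.

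The repeat of the bright probe spans 22 bases. Of 55681 probes on the array, 52 hold a run of alternating T and G of at least 20 bases, a length chosen after the values were seen. Their mean levels ran from 8.87 to 11.34 with a median of 10.62, against a median of -2.39 for all probes. Only 0.542% of all probes reached a level of 8, and 100% of these did. After injury 51 of the 52 had a negative difference (median -0.37, range -0.62 to 0.04), and 34 were called lower with every probe as its own row. The bright Tnfrsf9 probe (-0.55) is 1 of these 52, so its place within that range was fixed in advance. Without this probe 8 members were lower. The part of the repeat in the Tnfrsf9 value was not tested.

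**Figure D3:**
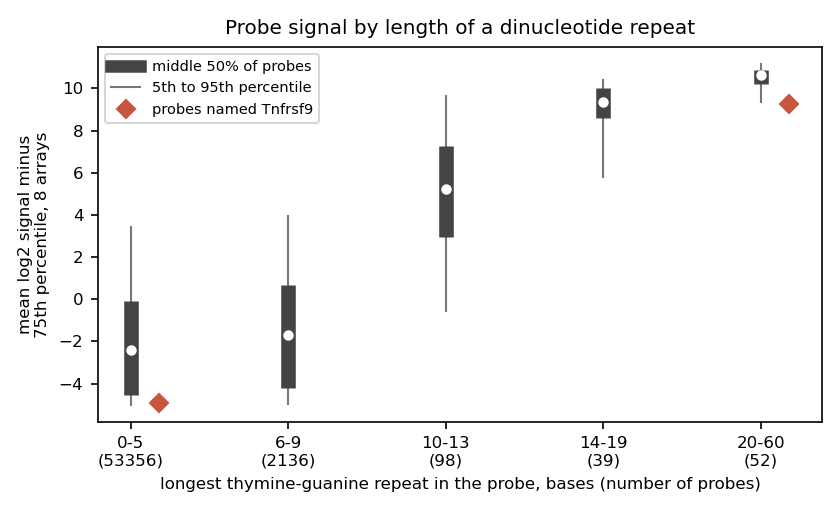
Mean log2 signal minus the 75th percentile over 8 arrays (vertical axis) is shown for all probes by the length of their longest thymine-guanine repeat (horizontal axis, number of probes in brackets). The median (white dot) rises from -2.43 for runs of 0 to 5 bases to 10.62 for runs of 20 or more, and the probes named Tnfrsf9 (diamonds) lie at 9.28 and -4.94.

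The other 7 receptors tested, including Tnfrsf12a and Ltbr, were not called. Tnfrsf11a (RANK) differed by -0.47 (adjusted p = 0.057) and was called lower without basal array 2 (-0.58) or injured array 4 (-0.57). Tnfrsf21 (death receptor 6) differed by -0.67, Tnfrsf4 (OX40) by -0.03 and Tnfrsf13b (TACI) by less than 0.01 in size. Tnfrsf19 (TROY) gave unequal answers: its brighter probe differed by -0.23 (adjusted p = 0.239), its other probe by -1.92 (SE 0.29, adjusted p = 7.3e-04 with every probe as its own row).

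The other 9 receptors, Tnfrsf1b and Tnfrsf26 among them, were too dim to test. Cd40, a costimulatory receptor of antigen-presenting cells, read -4.99 to -4.69 on basal and -5.20 to -4.62 on injured arrays, and was well above background on none. Tnfrsf11b (osteoprotegerin, a secreted decoy for RANKL) read -5.31 to -3.87 and -4.96 to -4.49, also on no array above background. Tnfrsf13c, Tnfrsf17 and Tnfrsf8 were likewise at background on all 8 arrays. Tnfrsf18 was well above background on 2 arrays of each group and Tnfrsf25 on 1 basal array, too few to test.

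All 7 Traf adaptors were tested, and 3 rose while 1 fell (57.1% called, against 60.2% of all genes tested). Traf1, an adaptor that pairs with Traf2 and is itself a known NF-kappaB target, rose most. It read 0.32, -1.21, -1.66 and -1.36 on the basal arrays and 2.55, 2.29, 2.34 and 1.96 on the injured arrays. Basal array 1 was the highest of its group, yet no basal array reached the injured range. Traf1 was 9.62-fold higher after injury (log2 difference 3.27, SE 0.40, adjusted p = 2.1e-04).

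Traf3, which holds back the non-canonical NF-kappaB kinase Map3k14, read 1.28, 1.54, 0.86 and 1.00 on the basal arrays and 2.13, 2.26, 2.13 and 2.01 on the injured arrays. Traf4 read 1.46, 1.58, 1.13 and 0.86, and 2.03, 1.99, 2.23 and 1.99. Neither gene's groups overlapped. Traf3 was 1.95-fold higher (log2 difference 0.97, SE 0.17, adjusted p = 0.00124) and Traf4 1.74-fold higher (0.80, SE 0.18, adjusted p = 0.00433).

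Traf6, the adaptor shared with interleukin 1 and Toll-like receptors, fell on both of its probes. The brighter probe read -1.04, -0.42, -0.42 and -0.90 on the basal arrays and -2.39, -2.43, -2.06 and -1.92 on the injured arrays, without overlap. It was 2.83-fold lower (log2 difference -1.50, SE 0.20, adjusted p = 3.2e-04), and the other probe gave -0.86 (SE 0.18). In a fit of the authors' deposited table the brighter probe differed by 0.07 (adjusted p = 0.911), so this direction depends on which deposited values are used.

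Traf2, the adaptor of the TNF receptor complex that recruits the Birc2 and Birc3 ligases, gave opposite signs on its probes. The brighter probe read 1.77, 1.79, 1.65 and 0.99 on the basal arrays and 2.06, 1.87, 2.10 and 1.99 on the injured arrays (log2 difference 0.45, adjusted p = 0.0692). The other read -0.84, -0.21, -0.31 and -0.59, and -0.67, -1.10, -1.77 and -1.26 (log2 difference -0.71, SE 0.25, adjusted p = 0.0359 with every probe as its own row). The brighter probe's groups were apart without a call, and the other's overlapped with one. Traf5 and Traf7 differed by -0.34 and 0.07 and were not called.

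Of the Traf-interacting proteins, 2 of 3 fell, against 24.8% of all genes tested. Traf3ip2 (Act1, the adaptor of the interleukin 17 receptor) read -1.56, -0.97, -0.18 and 0.26 on the basal arrays and -2.66, -2.65, -2.53 and -3.06 on the injured arrays. Its difference was -2.12 (SE 0.37, adjusted p = 0.00129), with 1 injured array well above background. Traf3ip3 read -0.61, -0.28, 0.18 and 0.01, and -2.59, -1.90, -1.68 and -2.09 (log2 difference -1.89, SE 0.24, adjusted p = 2.6e-04). Both genes' groups were apart, and Traf3ip1, a ciliary protein, differed by 0.19 without a call.

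**Figure D4:**
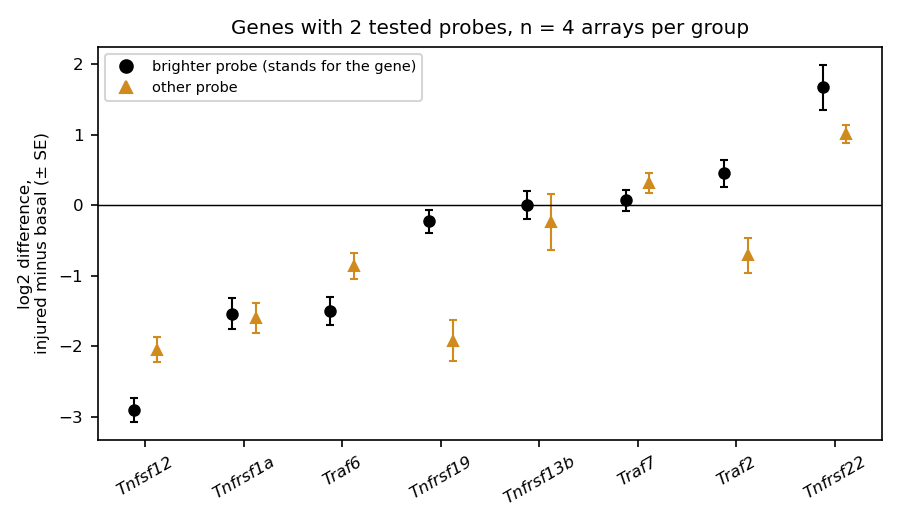
For the 8 members with 2 tested probes, the log2 difference between injured and basal arrays (vertical axis, with SE, 4 arrays per group) is shown for the brighter probe (circles) and the other probe (triangles). Tnfsf12, Tnfrsf1a and Traf6 lie below 0 and Tnfrsf22 above 0 on both, whereas Traf2 lies at 0.45 and -0.71.

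Several of the 17 calls rested on particular arrays or on the values used. Without basal arrays 1 and 2, 15 of the 17 were still called in the same direction. Ngfr (adjusted p = 0.13) and Tnfsf8 (0.0655) were lost, and Traf2, Tnfrsf11a and Tnfsf13b were added. With injured array 1 as the only injured array, assumed to vary like the others, fewer were called, as over all genes tested. All 17 kept their direction, among them Traf1 (3.53), Tnfsf12 (-3.01), Tnfsf9 (-1.47), Traf3ip3 (-2.42) and Traf6 (-1.69). In a fit of the authors' deposited table, 7 were called in the same direction: Traf1, Traf3, Traf4, Tnfrsf22, Ngfr, Tnfsf12 and Tnfrsf14. That fit called 4054 of all 13595 genes tested, against 8179 in the main fit. Traf1 and Tnfsf12 alone were called under each of the 21 alternatives tried on them.

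Around the receptors, 82 pathway genes were read in 7 lists, of which 67 were tested, 15 higher and 28 lower (64.2% called, against 60.2% of all genes). The list of death domain adaptors, caspases and necroptosis genes had 5 of 11 higher, 2 lower and a median of 1.34. That median was 0.71 without basal array 2, 0.45 or 0.47 with normexp, and 0.18 over the 5 genes above background on all 8 arrays, of which 2 were called. Casp8, the initiator caspase of death receptors, differed by 2.89 (adjusted p = 0.022) with basal array 3 far below the rest at -4.56. Its call was lost without injured array 1 (adjusted p = 0.0505). Ripk3, the necroptosis kinase, was called higher (fitted difference 2.15), with 1 basal array well above background at -2.11 and the others at -5.24 to -4.01. Bid, which carries the caspase signal to mitochondria, rose by 2.11. Ripk1 (-0.90) and Cflar (-0.68), which holds Casp8 in check, were lower. Casp6, another caspase, rose by 1.88.

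The list of ubiquitin enzymes of the receptor complex and their partner proteins had 7 of 14 lower and 2 higher. Its median was -0.38, and 24.8% of all genes tested were lower. Tnfaip3 (A20), which edits ubiquitin chains and damps the pathway, read 0.71, 1.38, 0.63 and -1.26 on the basal arrays and -3.12, -2.26, -2.27 and -3.69 on the injured arrays. It fell by 3.21 on the log2 scale (adjusted p = 0.00142), and the ligase Birc3 by 2.11. Tnip1, a partner of A20, had a difference of -1.32. The deubiquitinases Otulin (1.60) and Cyld (0.96), which also damp the pathway, were higher.

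The list of kinases of the complex and their partner proteins had 5 of 14 lower and 3 higher, against 24.8% and 35.4% of all genes tested. Ikbke was at least 2.67-fold lower, since no injured array was well above background for it, and Ikbkb (-0.73) and Map2k7 (-0.59) were lower too. Map3k7 (TAK1) rose by 0.82. Ikbkg (NEMO) was called higher (fitted log2 difference 1.42, interval 0.31 to 2.52), with 3 injured arrays and no basal array well above background. Its groups overlapped: basal array 4 read -2.91 and injured array 2 read -2.99. The call of Ikbkg was lost without basal array 2 or 3 or injured array 1, 3 or 4 (adjusted p of 0.0561 to 0.0838). That of Tab3 (0.55) was lost without basal array 1 or 4 or injured array 1, 2 or 3 (0.0601 to 0.0845).

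Of 9 NF-kappaB subunits and inhibitors tested, 5 were lower and 1 higher (all genes: 24.8% and 35.4%), with a median of -1.08. Without basal arrays 1 and 2, 3 were called and the median was -0.67: Nfkbib (adjusted p = 0.116), Nfkbie (0.106) and Bcl3 (0.191) were lost. The median was -0.40 in a fit of the authors' deposited table. The inhibitor Nfkbia read 3.34, 3.79, 3.19 and 2.31 on the basal arrays and 2.08, 1.84, 1.46 and 1.06 on the injured arrays, a fall of 1.55 on the log2 scale (adjusted p = 0.00391). Nfkbiz fell by 2.81. Bcl3 (-1.35) was lower, a call lost without basal array 1, 2 or 3 or any injured array (adjusted p of 0.0516 to 0.0681). Nfkb2, the subunit of the non-canonical branch, rose by 1.33, while Nfkb1, Rela and Relb were not called.

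Textbook NF-kappaB targets split: 4 of 10 were lower and 3 higher (all genes: 24.8% and 35.4%). The chemokine Cxcl10 had a difference of -4.68 and Cxcl1 of -3.44, and the adhesion molecule Icam1 was at least 6.13-fold lower. Sod2 (1.34), Csf1 (1.90) and Il1b (0.65) were higher, the call for Csf1 being lost without basal array 3 or 4 or injured array 1, 2 or 3. In the list for the cutting of TNF and its receptors from the surface, 3 of 5 were lower, against 24.8% of all genes tested. Rhbdf2, a carrier of the protease Adam17, was at least 6.20-fold lower, and the protease inhibitor Timp3 differed by -3.59. Adam17 itself differed by -0.39, a call lost without basal array 3 or 4 or injured array 1, 3 or 4. Of the 4 family genes tested that the name rule misses, Eda (-2.01) and Trafd1 (-0.49) were lower and Relt (0.51) was higher, a call lost without basal array 2 or 3 or injured array 1, 2 or 3. In a fit of the authors' deposited table Ripk1, Map2k7, Adam17 and Trafd1 had the opposite sign, and none of them was called there. In that fit Rhbdf2 (-0.57, adjusted p = 0.375), Tnfaip3 (-1.19, 0.196) and Birc3 (-1.28, 0.0959) were not called either, nor were Casp6, Cflar, Tnip1, Cyld, Ikbkb, Bcl3, Il1b, Eda and Relt.

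**Figure D5:**
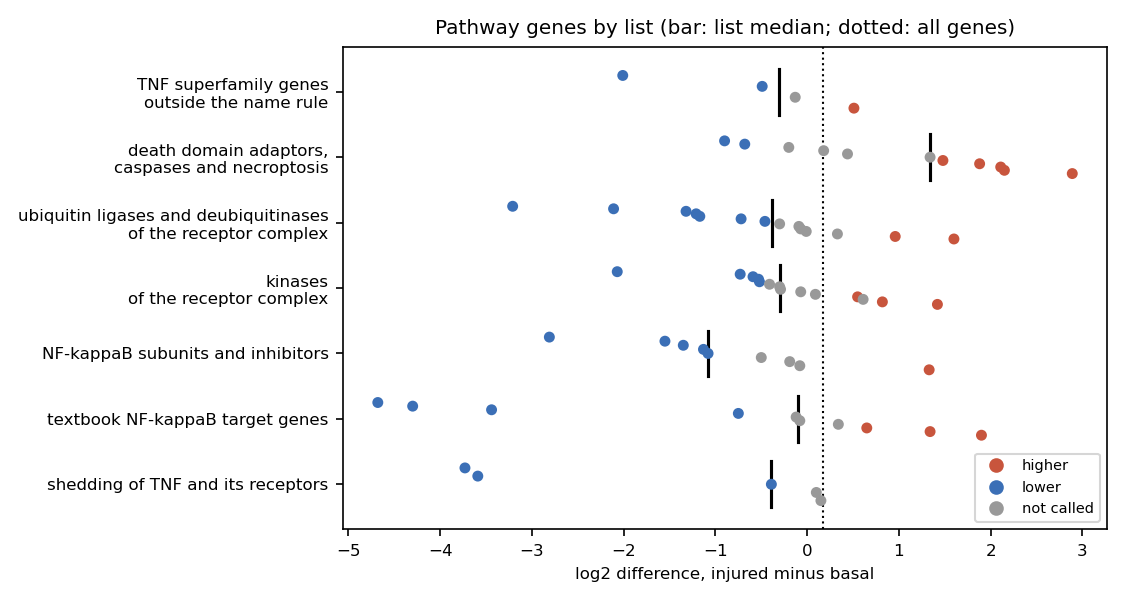
Each dot is the log2 difference between injured and basal arrays (horizontal axis) of 1 tested pathway gene, by list (rows), red if called higher, blue if lower and grey if not called. Black bars mark list medians, such as -1.08 for NF-kappaB subunits and inhibitors (-0.67 without basal arrays 1 and 2) and 1.34 for the death domain list (0.71 without basal array 2), and the dotted line the median of all genes tested, 0.17.

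Dissociation-sensitive genes and markers of several other cell types were lower after injury, as were 24.8% of all genes tested. All 12 genes of the list for immediate early response and dissociation stress were lower. Their summed level (signals divided by the 75th percentile of the array) was 1134 to 2310 on basal and 154 to 178 on injured arrays. The 7 markers of fibro-adipogenic progenitors summed to 55.9 to 85.0 and 6.40 to 9.22, with 4 of 4 tested lower; Pdgfra, their defining receptor, was at background on all arrays. Of the pericyte markers 5 of 7 were lower (12.9 to 16.4 against 4.44 to 8.37), and of the Schwann cell markers 3 of 4 (3.19 to 31.8, highest on basal 1, against 1.87 to 2.22). The endothelial list summed to 23.1 to 42.2 and 9.57 to 11.8, with 2 of 7 lower and 1 higher. Of these calls, that of Cldn5 (-1.16) was lost without basal array 2 or injured array 1, 2 or 4. That of Kdr (0.39) was lost without injured array 1, 3 or 4, and Kdr differed by -1.06 with the mean of its probes, without a call. The part of all these lists in the members' changes was not tested.

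Immune cell markers moved less. The macrophage list had 1 of 7 tested lower and none higher, at 474 to 542 on basal and 494 to 586 on injured arrays. Most of that sum came from the probe of Itgam (CD11b). Without it, a step chosen after the values were seen, the sums were 46.2 to 50.9 and 38.5 to 42.1, mostly from Csf1r. Csf1r was the gene called lower (-0.30, adjusted p = 0.0405), a call lost without basal array 2, 3 or 4 or injured array 1, 2 or 3. It differed by 0.14 with the mean of its probes and by 0.51 in the authors' deposited table, without a call in either. Of 10 lymphocyte genes, 6 were at background on all arrays and 1 of 3 tested was higher (sums of 4.87 to 5.71 and 4.69 to 5.07). That gene, Cd3e (0.37), lost its call without basal array 2 or 3 or injured array 1, 2 or 3. It differed by 0.01 in the authors' deposited table, without a call. The neutrophil list had 1 gene tested, Csf3r, which was lower, and without its bright probe it summed to 0.19 to 4.62 on basal arrays, highest on basal 2, and 0.22 to 0.64 on injured arrays. With that probe the sums were 395 to 438 and 254 to 292. Of satellite cell and myoblast genes, 5 of 10 were lower and 3 higher (sums of 251 to 340 and 120 to 154), Pax7 differing by -2.95 and Myog by 4.09.

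Promoter sequences of RefSeq (build GRCm38.p6) were held for 39 of the 48 members and searched over the 250 bases before the start, on both strands. The kappaB consensus, the site of NF-kappaB, matched in 5 of the 39 (12.8%) and in 8.23% of 27025 genes. The AP-1 site, TGACTCA or TGAGTCA, bound by Fos and Jun proteins, matched in 5 (12.8%) and in 5.16% of genes. Of the members with a match, Traf3 rose, Fas and Tnfrsf9 were called lower, and the others were not called or not tested. The promoters of Traf3 (chr12:111166120-111166369, plus strand) and Fas (chr19:34290409-34290658, plus strand) are shown because these members moved in opposite directions and each holds 1 match, in capitals. In Traf3 the kappaB match ends at the base before the start, and in Fas the AP-1 match begins 211 bases before it. A match is a description of the letters and not evidence of binding.
Traf3 promoter: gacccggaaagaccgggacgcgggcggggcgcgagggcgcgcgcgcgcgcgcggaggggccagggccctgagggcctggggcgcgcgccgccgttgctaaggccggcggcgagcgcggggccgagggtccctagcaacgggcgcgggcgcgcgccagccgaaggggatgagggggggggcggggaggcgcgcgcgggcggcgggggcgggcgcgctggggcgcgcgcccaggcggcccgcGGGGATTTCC
Fas promoter: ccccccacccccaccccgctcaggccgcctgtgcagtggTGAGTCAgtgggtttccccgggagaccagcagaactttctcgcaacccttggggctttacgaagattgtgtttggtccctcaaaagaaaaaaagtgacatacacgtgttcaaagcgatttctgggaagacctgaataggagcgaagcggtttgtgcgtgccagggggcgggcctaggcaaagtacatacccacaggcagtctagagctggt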

How the data were processed

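Total RNA of 8 samples (4 basal, 4 injured) was labelled and put on 1 array each, per the labels' protocols. The authors' scanner output gives the intensity of each spot after background subtraction, with no scaling between arrays; per the file headers the software was Agilent Feature Extraction, version 10.7.3.1. The authors' deposited table holds normalized values taken as log2 from their range (column medians of 8.05 to 8.16). How it was made is not given in the sources used here. It served as an alternative only.

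The log2 processed signal minus each array's 75th percentile was used, without control spots and 1119 flagged spots. Of 55681 probes, 29125 were named: 26401 by accession and the others by array name through RefSeq's gene table (GRCm38.p6). All 61 member probes kept their array name. The probe with the highest mean signal stood for a gene. Differences came from limma 3.58.1 in R 4.3.3 (a two-sided test with 2.552 prior and 6 residual degrees of freedom, and Benjamini-Hochberg adjustment over 13595 genes), checked on simulated data. Tables were made with pandas 2.3.3 and figures with matplotlib 3.10.9. P-values measure the spread between samples labelled as biological replicates.

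Members and lists were chosen with earlier results of these data known. Full values are given for called members with the largest differences, up to 6 per role and direction, and for 12 genes whatever their call (Tnf, Tnfrsf1a, Tnfrsf1b, Tnfsf12, Tnfrsf12a, Fas, Ngfr, Traf2, Traf6, Cd40, Ltbr and Tnfrsf11b). Pathway genes named are up to 3 called per list and direction; a few others complete a count or carry a limit and were chosen after their values were seen. Some genes of the lists are not reported here by name. Alternatives covered scaling, background correction, filters, probe choice, limma options, a replicate block, the deposited table and leaving arrays out. A slide block could not be fitted, since each slide holds 1 group. Same-numbered basal and injured arrays did not deviate together (correlations of -0.00235 to 0.0943), so the numbers were not taken as pairs.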

Additional observations from a re-analysis of the deposited data

Results flagged for a closer look

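A few single arrays lay far from the other 3 of their group, and chance alone gives such a gap in about 1 of 20 groups. Both groups of all 31 members tested were examined, so a few such gaps would arise by chance. For Tnfrsf22, basal array 3 read -1.54 while the others read -0.29 to -0.07. For Ngfr, injured array 2 read 2.58 against 2.89 to 2.95. For Traf4, injured array 3 read 2.23 against 1.99 to 2.03, and for Tnfrsf4, injured array 3 read 0.06 against 0.23 to 0.26. Of the genes concerned, Tnfrsf22, Ngfr and Traf4 were called higher and Tnfrsf4 was not called. Leaving out the array that lay apart ended none of these calls.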

How the results depend on the processing

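Counts of members called were 8 higher and 9 lower. In a fit of the authors' deposited table they were 5 and 2, and with injured array 1 as the only injured array 1 and 4. With every probe as its own row 14 member probes were lower. For the pathway lists (15 and 28) the deposited table gave 8 lower, the filter for all 8 arrays 9 higher, injured array 1 alone 3 and 6, and every probe as its own row 23 higher. For the marker lists (5 higher) the deposited table and the replicate block each gave 3, and injured array 1 alone 0 (limma; 3 at an unadjusted p under 0.05). Leaving out 1 array at a time gave 6 to 8 and 9 to 11 members, 10 to 14 and 26 to 29 pathway genes, and 3 to 6 and 31 to 36 markers. Traf6 turned to 0.07 in the deposited table. The cause of these shifts was not tested, apart from the fewer arrays or the larger number of rows in some fits. The replicate block gave 7 members higher and 11 lower. The median of all genes was 0.17, between 0.05 and 0.14 under other scalings, background corrections and without the filter, and 0.47 in the deposited table, where 81.0% of called genes were higher against 58.8%. There the medians of the ubiquitin (0.02), kinase (0.35) and shedding (0.93) lists and of family genes outside the name rule (0.22) were above 0. The median of the target list, -0.10, ran from -0.46 to 0.34 over the settings. Signal over background limits Fas, Tnfsf9, Tnfrsf23, Ripk3, Ikbke, Ikbkg, Icam1 and Rhbdf2.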
